A study of Rattus norvegicus with 9 samples.

Results

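Sertoli cell cultures from 60-day-old rats were compared with cultures from 12-day-old rats, gene by gene, on expression arrays. The comparison was of 6 of the 9 arrays of the study, 3 for each age, chosen by the age in the labels. It covered all 22630 genes that passed a filter on dim signal. The model was fitted to all 9 arrays, so the 3 arrays of 5-day-old rats also entered the filter and the estimate of the spread. Both ages had the same history: Sertoli cells were isolated from the testis, kept for 4 days in a defined medium with growth factors, and then given oFSH (follicle-stimulating hormone, 50 ng/ml) with testosterone (1e-07 M) in pulses for 11 h. No culture without hormones was among the samples, so every level below is that of a hormone-treated culture. The labels name no strain and no step to remove other testis cells. Whether the 3 replicates came from different animals or cultures is not given, so the spread behind each p value may be technical.

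Sertoli cells are the somatic cells of the seminiferous tubule. In the young testis they divide and secrete anti-Müllerian hormone. Around puberty they stop dividing, seal the tubule with tight junctions and support germ cells through meiosis and sperm formation, under the control of follicle-stimulating hormone and testosterone. At 12 days the rat tubule holds spermatogonia and the earliest spermatocytes, and at 60 days it holds all stages up to sperm.

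A level is the log2 signal minus that of the array's 75th percentile, so 0 means a signal at that percentile. Levels are listed for replicates 1, 2 and 3 in that order. Fold changes are on the log2 scale, 60 minus 12 days, with the standard error of the model, and "rose" and "fell" are used for an adjusted p below 0.05 in limma, where a gene is called. Fold changes of genes that no array of the lower age measured well above background are given as bounds: the floor of that age was the lowest signal well above background on each array, or the gene's own signal where that was higher. The lowest such signals were -4.25, -4.52 and -3.33 at 12 days and -4.73, -4.76 and -4.39 at 60 days. A printed level below these was not well above background. The size of a change that rests on such levels is uncertain, as for Ppp1r1a, Gsta2, Lpl, Fbln5, Cnn1 and Heph.

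On each array 49.1% to 63.0% of the probes lay well above background, and 29 to 141 probes were saturated. Arrays of the same age correlated at 0.950 to 0.967 (12 days) and 0.941 to 0.970 (60 days) across genes, and arrays of different age at 0.845 to 0.872. The number of arrays limits the precision. Each replicate number was 1 slide with both ages on it, and arrays of an age always sat at the same position of the slide, so the effects of position and of age cannot be told apart. Spike-in controls, synthetic RNAs that answer to no rat gene, read lower at 60 days relative to the percentile, by 1.055, 0.289 and 1.543 on the slides of replicates 1, 2 and 3. Scaling to these controls instead adds 0.96 on average to every fold change and moves the median over all genes from -0.17 to 0.80, so the directions given here depend on that choice and compare a gene with the rest of its array.

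Replicate 1 stood apart in some lists. Its 60-day array carried more signal of fibroblast markers (a summed level of 126 multiples of the 75th percentile, against 44.5 and 24.0 in replicates 2 and 3). The same held for peritubular markers (810, against 397 and 368). Replicate 1 was also the highest at the other ages. Fibroblast levels were 306, 219 and 203 at 12 days and 988, 576 and 451 at 5 days. Peritubular levels were 1013, 680 and 982 at 12 days and 1249, 722 and 747 at 5 days. All arrays of replicate 1 were read with another scanner model and software version than the rest, and the part of these was not tested. The 60-day array of replicate 1 carried less of the interferon list (454, against 820 and 609). Replicate 1 was not the lowest in that list at 12 days (213, against 220 and 186) or at 5 days (443, against 338 and 246). In bulk RNA such as this, fewer cells of a type and less RNA per cell cannot be told apart.

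Of the 22630 genes, 7753 were called (34.3%). Of these 3497 rose (15.5% of the genes tested) and 4256 fell (18.8%). The counts given below for each list should be read against these shares. The lists are of named genes, and 11932 of the genes tested had a current symbol. Of the 11164 such genes on autosomes 18.43% rose and 16.11% fell. For named genes the shares over all genes are therefore somewhat low for rises and high for falls. By measured signal 865 rises and 545 falls were at least 8-fold, counting genes whose fold change is only a bound. Among the genes that rose, 1018 were not well above background on any 12-day array, and among those that fell 485 were not well above background on any 60-day array. The sizes of the rises and falls therefore cannot be compared directly. With only probes above background on all 6 arrays, 1923 rose and 3458 fell. The short lists of spermatogonium, spermatocyte and spermatid markers described below had 10, 26 and 31 genes tested. Of these 4, 24 and 29 rose, which makes 57 of the 3497 rises. The length of the lists limits that number, so it does not measure the share of germ cell genes among the rises. On the spike-in scale 4804 genes were higher and 779 lower, so that the share of calls that were higher went from 45.11% to 86.05%. Without the 60-day array of replicate 1, 3296 rose and 3331 fell. Without replicate 3 the counts were 2304 and 2027, without the 12-day array of replicate 3 the falls numbered 2409, and without the 60-day array of replicate 3 they numbered 2827.

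**Figure D1:**
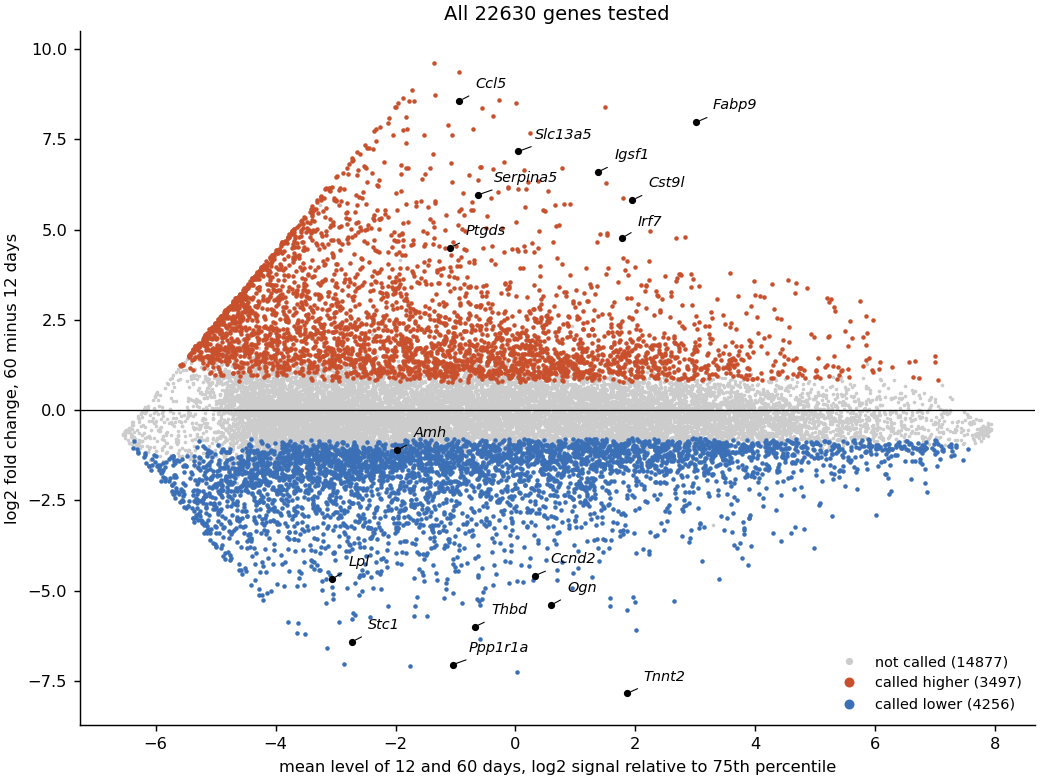
Log2 fold change (60 minus 12 days) of each of the 22630 genes tested against its mean level at both ages (log2 signal relative to the 75th percentile); colours mark genes called higher (3497), called lower (4256) or not called (14877), and black points are genes named in the text. Ccl5 and Fabp9 are the highest named points, and Tnnt2 is the lowest named point.

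Outside the germ cell marker lists, the largest rise among genes with a current symbol and measured on all 6 arrays was that of Fabp9, a fatty acid binding protein of the testis (probe at rn4 chromosome 2, 93550720 to 93550779). It read -1.36, -0.74 and -0.82 at 12 days and 7.60, 6.79 and 6.62 at 60 days, a rise of 7.98 ± 0.38 (adjusted p = 4.5e-06). The citrate transporter gene Slc13a5 read -4.14, -3.93 and -2.54 at 12 days and 4.75, 2.48 and 3.65 at 60 days (7.16 ± 0.49, adjusted p = 1.48e-05). In both genes every 60-day array lay far above every 12-day array. Igsf1, an X-linked membrane glycoprotein of the immunoglobulin superfamily, went from -2.47, -1.69 and -1.60 to 4.00, 4.82 and 5.20 (6.59 ± 0.36, adjusted p = 5.81e-06). Embigin (Emb), a companion of monocarboxylate transporters, went from -2.14, -2.00 and -0.78 to 4.31, 4.40 and 5.27 (6.30 ± 0.31, adjusted p = 4.5e-06). These groups too were separated by several log2 units. Others were less familiar in this tissue. Tnni3, which encodes the troponin I of heart muscle, rose from -1.07, -1.30 and -1.06 to 5.09, 4.74 and 4.37 (5.88 ± 0.29, adjusted p = 4.5e-06). Alas2, the first enzyme of haem synthesis in red cell precursors, rose from -1.87, -2.51 and -1.72 to 3.62, 3.45 and 3.93 (5.70 ± 0.28, adjusted p = 4.5e-06), while the other red cell gene that could be tested, Ahsp, fell, a call lost on the spike-in scale (adjusted p = 0.363).

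Among the falls measured on all 6 arrays, that of Tnnt2 had the greatest size. Tnnt2, which encodes the troponin T of heart muscle (probe on rn4 chromosome 13, 48885154 to 48885588), read 5.86, 6.03 and 5.46 at 12 days and -0.75, -2.61 and -2.80 at 60 days, and fell by 7.84 ± 0.40 (adjusted p = 4.79e-06). Tnnc1, the troponin C partner of Tnnt2 in heart muscle, read 4.91, 4.99 and 5.26 against -1.08, -1.14 and -0.90, a log2 fold change of -6.09 ± 0.29 (adjusted p = 4.5e-06). Thus 2 subunits of cardiac troponin fell while the third, Tnni3, rose, each with no overlap between ages. Ccnd2, which encodes cyclin D2, read 2.93, 3.28 and 1.62 at 12 days and -0.64, -1.95 and -3.34 at 60 days (-4.59 ± 0.50, adjusted p = 0.000143). The protein kinase C gene Prkcb read 2.45, 2.70 and 2.79 against -0.09, -2.85 and -3.26 (-4.71 ± 0.60, adjusted p = 0.000367), with the 60-day array of replicate 1 higher than the others. Stc1, the gene of the secreted hormone stanniocalcin 1, was at least 34.5-fold lower at 60 days, where no array measured it well above background.

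**Figure D2:**
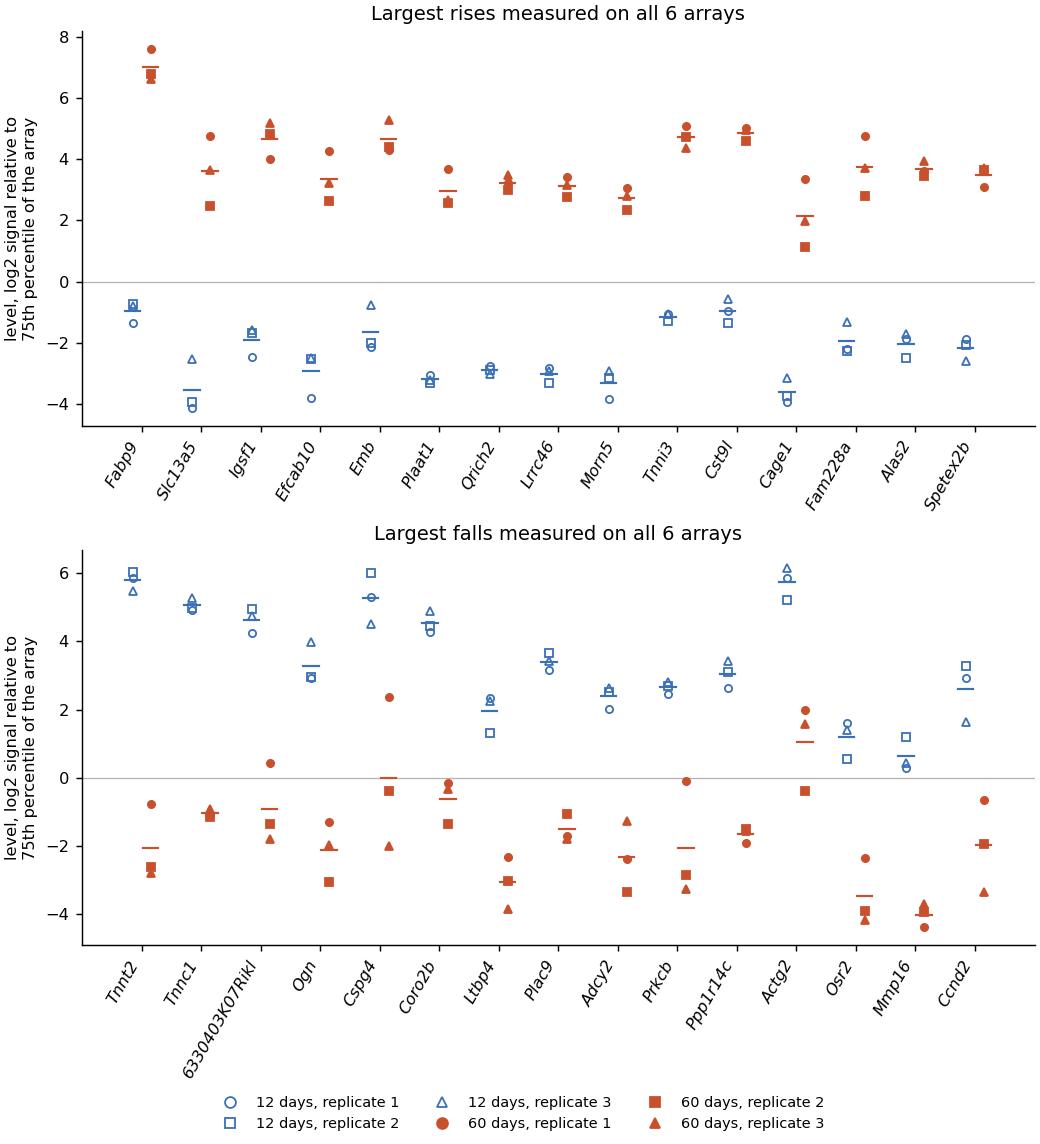
Levels (log2 signal minus that of the array's 75th percentile) of the 15 genes with the largest rises (top) and the 15 with the largest falls (bottom) among genes called, with a current symbol, measured well above background on all 6 arrays and in no germ cell list; open symbols are 12-day and filled symbols 60-day arrays, shapes mark replicates and bars are means of 3. No gene has overlapping ages, and the 60-day array of replicate 1 is the highest of its age for Tnnt2, Cspg4 and Prkcb.

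Markers of Sertoli cells were present at both ages. Of 30 marker genes, all on the array, 29 passed the filter, 12 rose and 2 fell, with a median fold change of 0.77. With the spike-in scale 15 rose and none fell, and 8 rose without replicate 2. Several regulators and hormones that define the lineage were not called. Gata4, a transcription factor of gonadal somatic cells, read 3.25, 3.05 and 3.71 at 12 days and 2.99, 3.18 and 3.37 at 60 days, and Sox9, a transcription factor of Sertoli cell differentiation, read -1.55, -1.50 and -1.96 against -2.61, -1.01 and -2.36. The ages overlapped in both. Inha, the alpha subunit of inhibin, was bright at both ages (6.56, 6.57 and 6.90 against 6.18, 6.24 and 6.18). The receptor for follicle-stimulating hormone, Fshr, read -2.63, -3.33 and -2.21 against -2.14, -1.49 and -1.82, and its difference of 0.91 ± 0.42 had an adjusted p of 0.122.

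The Sertoli genes that rose most encode secreted proteins. Serpina5, the protein C inhibitor of seminal fluid, read -2.65, -3.66 and -4.51 at 12 days and 2.72, 2.22 and 2.12 at 60 days (5.96 ± 0.31, adjusted p = 5.28e-06). The cystatin-related gene Cst9l rose from -0.96, -1.34 and -0.57 to 5.03, 4.58 and 4.96 (5.82 ± 0.33, adjusted p = 7.31e-06). Ptgds, prostaglandin D2 synthase, went from -3.33, -3.85 and -2.85 to 0.62, 1.66 and 1.18 (4.50 ± 0.38, adjusted p = 4.28e-05). Each of these genes was low on all 12-day arrays and high on all 60-day arrays. Cst12, another cystatin, rose by 3.73 ± 0.34 (adjusted p = 5.95e-05). The carrier genes rose less: Shbg, the androgen binding protein, by 1.57 ± 0.30 (adjusted p = 0.00358) and Tf, transferrin, by 1.46 ± 0.28 (adjusted p = 0.00366), and without replicate 2 neither was called (largest adjusted p 0.0542 and 0.0654). Cldn11, the claudin of the Sertoli barrier, read -0.40, -0.16 and 0.11 at 12 days and 1.02, 2.36 and 2.25 at 60 days (2.03 ± 0.30, adjusted p = 0.000921).

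The 2 marker genes that fell were Amh and Aard. Amh, anti-Müllerian hormone, read -1.37, -1.46 and -1.43 at 12 days and -2.60, -2.11 and -2.86 at 60 days, a fold change of -1.10 ± 0.28 (adjusted p = 0.0154), and the ages did not overlap. Its adjusted p reached 0.172 with 1 array or replicate left out, and on the spike-in scale its fold change was -0.14. Aard, an alanine- and arginine-rich protein of the gonad, was among the brightest genes at 12 days (7.08, 7.12 and 7.01) and read 5.16, 5.36 and 5.36 at 60 days (-1.78 ± 0.27, adjusted p = 0.000935), a change of -0.81 on the spike-in scale.

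Of 35 tested genes of the junctions that join Sertoli cells 9 rose and 5 fell. The falls did not hold: none was called without replicate 3 or with spike-in scaling, and 1 without replicate 2. Jup, the desmosome and adherens junction protein plakoglobin, rose from 1.25, 0.48 and 1.36 to 3.85, 3.84 and 3.68 (2.76 ± 0.38, adjusted p = 0.000581). The tight junction protein gene Cgn (cingulin) rose by 2.09 ± 0.37 (adjusted p = 0.00242). The ages were apart in both. Outside the list, the cadherin gene Cdh17 was at -2.03, -1.91 and -2.19 at 12 days and 2.43, 2.27 and 2.37 at 60 days (4.40 ± 0.30, adjusted p = 1.46e-05).

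Markers of meiotic and later germ cells were higher at 60 days. Of 26 spermatocyte markers tested 24 rose, with a median of 3.20, and of 31 spermatid markers 29 rose, with a median of 4.18, or 2.89 with genes at their bounds; none fell. Of 10 spermatogonium markers 4 rose. Their summed level went from 30.8, 44.4 and 46.5 to 317, 213 and 258 for spermatocytes, and from 12.1, 11.1 and 14.2 to 98.4, 64.0 and 87.5 for spermatids, with no overlap between ages. All 12-day arrays were at background for 16 spermatid markers, and all 60-day arrays for none. Smcp, a protein of the sperm mitochondrial capsule, was at least 63.0-fold higher, and Ddx4, the helicase of the germ line, rose by 3.16 ± 0.34 (adjusted p = 0.000135). The part of these cells in the changes of other genes was not tested.

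Groups of genes that act in sperm and its precursors were also tested, and 1 to 5 tested members of most of them are also in the germ cell marker lists. Germ cell chromatin and histone variant genes went both ways, 11 of 33 higher and 5 lower (1 lower without replicate 2 or with spike-in scaling, 2 without replicate 3). Of 33 tested genes of the axoneme, the microtubule core of cilia and flagella, and of ciliary assembly, 31 rose (median 4.47, 2.99 with bounds) and none fell; over all genes 15.5% rose. Of these 33, 14 were not well above background on any 12-day array. With probes above background on all 6 arrays 11 rose (median 2.88), and with normexp correction of the mean signal 20 rose (median 0.96). Spag16, a protein of the central pair of the axoneme, was at least 48.8-fold higher, and Drc1, a part of the dynein regulatory complex, at least 60.2-fold. Foxj1, the transcription factor that turns on motile cilia genes, rose from -3.48, -2.52 and -2.89 to -0.80, -0.19 and 0.23 (2.71 ± 0.39, adjusted p = 0.000726), with the ages well apart. Genes of intraflagellar transport and the basal body, which other ciliated cells use too, rose in 16 of 37, and in 9 without replicate 3. Cetn1, a testis centrin, was at least 89.8-fold higher.

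Testis forms of common enzymes were a second group. Of 26 tested isozymes of energy metabolism 21 rose and 1 fell, with a median of 3.03. The lactate dehydrogenase gene Ldhc rose from -2.65, -2.62 and -2.84 to 6.49, 4.81 and 5.73. Cox8c, a testis subunit of cytochrome oxidase, was at least 65.1-fold higher, and Crisp2, a cysteine-rich protein of the acrosome, at least 80.0-fold. The common respiratory chain did otherwise: of 30 genes none rose and 2 fell. Germ granule and translational control genes rose in 20 of 32, among them Tdrd6, a scaffold of the chromatoid body (at least 52.2-fold). Testis kinases, phosphatases and their anchors rose in 21 of 30 and fell in 2; the testis calcineurin subunit Ppp3r2 was at least 36.5-fold higher. Ubiquitin and proteasome forms of the testis rose in 15 of 33, with Psma8, the alpha subunit of the testis proteasome, at least 13.5-fold higher. Sperm ion channels, pumps and transporters rose in 15 of 19, against 15.5% over all genes. Of these 19, 11 were not well above background on any 12-day array. With probes above background on all 6 arrays 1 rose (median 0.66), and with normexp correction of the mean signal 5 rose (median 0.42). The same filter left 8 rises of isozymes, 10 of germ granule genes, 7 of kinases and 5 of ubiquitin forms. Aqp8, a water channel, was at least 218-fold higher, with 60-day levels of 1.57 in replicate 1 and 4.69 and 4.95 in replicates 2 and 3. Of 42 tested chaperones 12 rose and 8 fell; the falls numbered 1 without replicate 2 or without replicate 3, 5 without the 60-day array of replicate 1, and 0 with spike-in scaling. Hspb9, a small heat shock protein of the testis, was at least 311-fold higher, while Hspa1a, the inducible heat shock protein, read 2.77, 2.46 and 2.87 against 0.57, 0.04 and 0.65 (-2.28 ± 0.27, adjusted p = 0.000237).

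Stretches of promoter are shown for the 3 axoneme genes that rose most among those with the short X-box, the letters GTTGCC bound by RFX factors, before the start site and outside the gene's RefSeq span. The letters, searched on both strands in windows of RefSeq promoters (build GRCr8), stood in 46.43% of 28 promoters of the axoneme list, in 12.98% of 9646 promoters of tested genes, and in 16.52% of those of genes that rose and 10.26% of those that fell. Capitals mark the motif, which reads GGCAAC where it lies on the other strand, and the sequences run 5′ to 3′ along the gene.
Tekt2 (chr5:143907725-143907793, minus strand): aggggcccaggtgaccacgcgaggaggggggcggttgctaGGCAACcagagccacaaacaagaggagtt
Lrrc23 (chr4:159277765-159277827, minus strand): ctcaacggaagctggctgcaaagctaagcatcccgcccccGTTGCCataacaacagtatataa
Spag6l (chr11:97677736-97677821, plus strand): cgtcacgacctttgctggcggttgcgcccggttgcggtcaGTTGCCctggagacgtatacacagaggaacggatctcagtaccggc

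The tektin gene Tekt2 read -3.35, -3.67 and -2.04 at 12 days and 2.55, 1.71 and 1.83 at 60 days (5.05 ± 0.43, adjusted p = 4.18e-05). Lrrc23, of the radial spoke, read -3.00, -2.88 and -2.35 against 2.95, 1.58 and 2.36 (5.04 ± 0.34, adjusted p = 1.4e-05). Spag6l, of the central pair, was at least 7.58-fold higher. All 3 were low on every 12-day array. The motif did not part the list: 12 of the 13 members with it rose (median 4.71), and 14 of the 15 without it (median 3.27).

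Genes of the interferon response and of antigen presentation were higher at 60 days. Of 35 tested 24 rose, with a median of 1.81, and none fell; over all genes 15.5% rose. The count was 18 without the replicate block, 28 without the 60-day array of replicate 1, and 15 without replicate 2 or without replicate 3. With normexp correction of the mean signal, which only replicates 1 and 3 hold, 5 rose (median 0.53). Irf7, the transcription factor that amplifies the interferon response, read -0.63, -0.89 and -0.31 at 12 days and 1.94, 5.45 and 5.06 at 60 days (4.76 ± 0.66, adjusted p = 0.000561). The antiviral GTPase gene Mx2 read -3.30, -3.23 and -3.14 against -0.85, 1.29 and 1.39 (3.83 ± 0.42, adjusted p = 0.000151). Isg15, a ubiquitin-like modifier, read 1.05, 0.70 and 0.87 against 3.24, 5.60 and 4.74 (3.65 ± 0.49, adjusted p = 0.000499). The 60-day array of replicate 1 was the lowest of its age in all 3 genes and still above every 12-day array.

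The rat class I and class II histocompatibility genes, named RT1, rose in 15 of 22 and fell in 1 (median 2.67). Class I genes present peptides from inside the cell to T cells. RT1-A2, named after its values were seen, read 3.88, 3.44 and 3.60 at 12 days and 6.06, 7.19 and 6.96 at 60 days (3.09 ± 0.34). These genes are near-identical copies, and a probe for one can bind the RNA of another, so that the number of separate genes that moved is uncertain. RT1-CE10, the largest rise of the family, was at least 8.82-fold higher (adjusted p = 0.0343, and 0.0521 without the replicate block) although its 60-day level in replicate 1 was -6.17, within the 12-day values of -5.28, -6.66 and -5.63, beside 2.32 and 1.18 in replicates 2 and 3. Cd74, the invariant chain of class II molecules, read -5.14, -4.00 and -3.91 against -2.86, -0.88 and -1.15 (2.72 ± 0.40, adjusted p = 0.000818).

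Chemokines, which draw in white blood cells, rose in 9 of 20 and fell in 2. Ccl5, which draws T cells and monocytes, was at least 167-fold higher, with 60-day levels of 1.18, 4.60 and 4.26. Cxcl12, which holds stem cells in their niche, fell: 0.25, 1.27 and 0.08 at 12 days and -3.43, -4.18 and -2.15 at 60 days (-3.79 ± 0.62, adjusted p = 0.00146). Of 29 tested genes of the NF-kB pathway and inflammatory cytokines 9 rose and 9 fell. The falls numbered 3 without replicate 3, 4 without replicate 2 and 1 with spike-in scaling, and 3 genes rose with normexp correction of the mean signal. Vcam1, an adhesion molecule for white blood cells, rose from -2.42, -1.24 and 0.78 to 4.09, 3.28 and 3.68 (4.64 ± 0.63, adjusted p = 0.000537). Among complement genes the protease C1s rose from 0.01, -0.22 and 0.26 to 3.56, 4.36 and 4.02 (3.96 ± 0.30, adjusted p = 2.53e-05), and factor B (Cfb) was at least 3.11-fold higher, while Thbd, the anticoagulant receptor thrombomodulin, read 2.46, 2.10 and 2.41 against -1.98, -4.12 and -4.92 (-6.00 ± 0.50, adjusted p = 3.72e-05). Il24, a cytokine of the interleukin 10 family, rose by 4.49 ± 0.33 (adjusted p = 2.01e-05).

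Markers of white blood cells moved unevenly beside these genes. Of 15 macrophage markers tested, out of 18, 6 rose and 1 fell, and of 5 markers of lymphocytes and mast cells, out of 16, 1 rose. The macrophage rises numbered 4 without replicate 2 and 0 with normexp correction of the mean signal. With probes above background on all 6 arrays 1 macrophage marker rose, and the median was -0.29. The summed macrophage level was 51.6 to 67.8 at 12 days and 12.6 to 19.5 at 60 days, and Emp3 read 5.62, 6.02 and 5.59 against 3.71, 3.87 and 3.07. Emp3 was the brightest of these markers and also expressed by many other cells. It made up most of the summed level on every array, so the lower sum at 60 days is that of Emp3. The median level of the macrophage list was -2.46, -2.85 and -3.20 at 12 days and -2.12, -1.83 and -1.72 at 60 days. Aif1, a calcium-binding protein of macrophages, read -3.87, -2.83 and -4.44 against -1.13, -0.78 and -0.88 (2.78 ± 0.46, adjusted p = 0.0015). Cd8a, the coreceptor of cytotoxic T cells, read 1.13, 1.59 and 0.99 at 60 days and was at least 38.5-fold higher. The part of such cells in the rises was not tested.

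**Figure D3:**
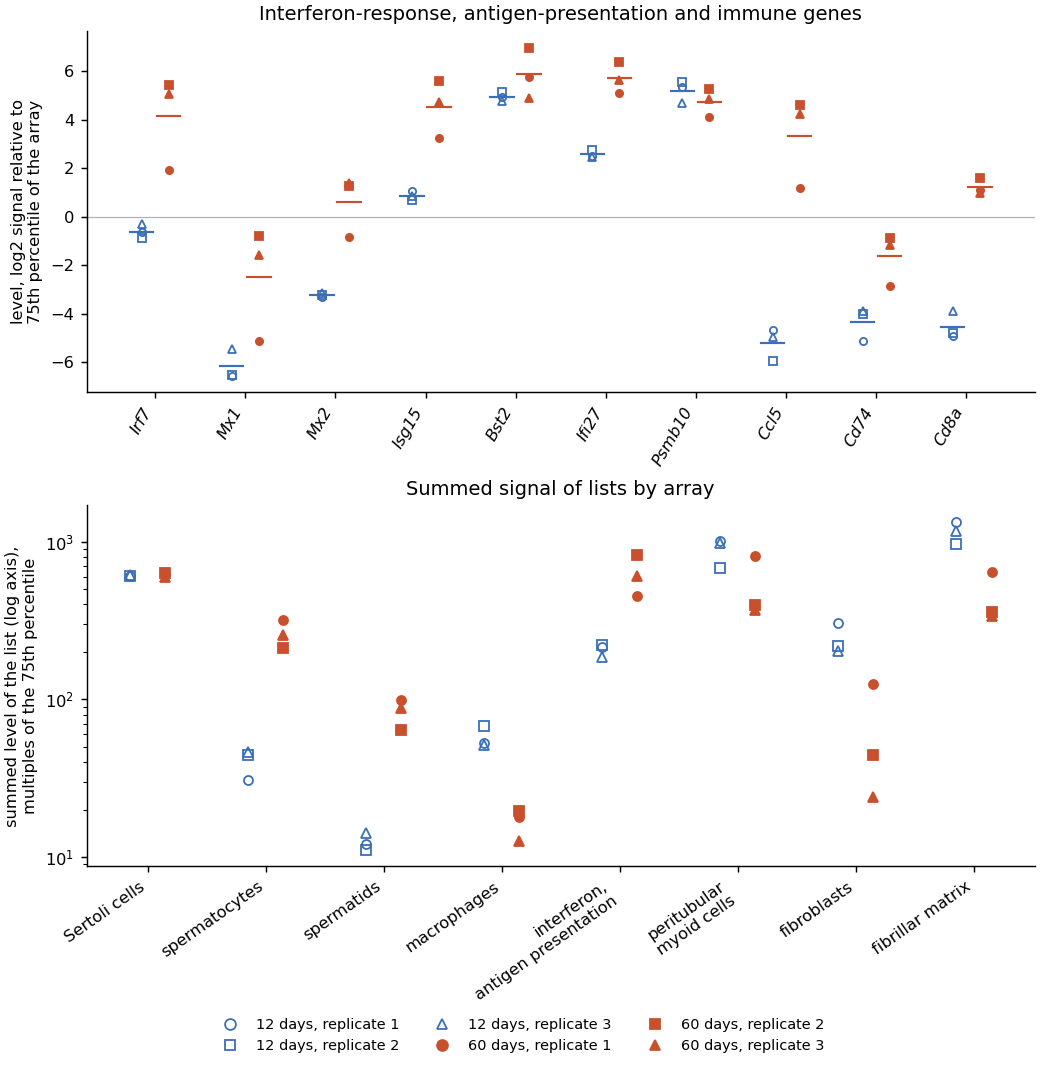
Top, levels (log2 signal relative to the 75th percentile) of 10 interferon-response, antigen-presentation and immune genes by array, bars being means of 3; bottom, summed level of 8 gene lists by array, in multiples of the 75th percentile on a log axis. Filled symbols are 60-day arrays. The circle of replicate 1 is the lowest 60-day value for Irf7, Isg15 and Ccl5, and the highest for the fibroblast and peritubular lists. Emp3 makes up most of the macrophage sum.

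The interferon list shared a promoter motif. The letters GAAANNGAAA of the interferon-stimulated response element, bound by interferon regulatory factors, stood in 66.67% of its 27 RefSeq promoters, searched on both strands, against 3.09% of 9646 promoters of tested genes. They are shown for the 3 genes with the largest rises whose motif lay before the start site and outside the gene's RefSeq span (build GRCr8), with the motif in capitals and in its complementary form where it lies on the other strand.
Ifi27 (chr6:128355188-128355277, plus strand): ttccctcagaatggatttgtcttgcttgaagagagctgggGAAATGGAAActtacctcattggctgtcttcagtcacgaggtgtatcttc
Gbp5 (chr2:233910903-233910992, plus strand): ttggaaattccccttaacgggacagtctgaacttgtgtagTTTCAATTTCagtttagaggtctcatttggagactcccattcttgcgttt
Ifit3 (chr1:241527242-241527325, plus strand): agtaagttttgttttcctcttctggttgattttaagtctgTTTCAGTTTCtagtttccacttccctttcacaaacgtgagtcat

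Ifi27, a mitochondrial protein induced by interferon, read 2.50, 2.75 and 2.48 at 12 days and 5.10, 6.40 and 5.64 at 60 days (3.14 ± 0.36, adjusted p = 0.000213), with no overlap. The guanylate binding protein gene Gbp5 was at least 1.51-fold higher and the RNA-binding Ifit3 at least 1.18-fold, both being below background on every 12-day array. Members rose with and without the motif: 13 of the 18 with it (median 1.72) and 5 of the 9 without it (median 1.81).

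Genes of the fibrillar matrix were lower at 60 days. Of 36 tested collagens, fibrillar proteins and their modifiers 27 fell and 1 rose, with a median of -2.08; over all genes 18.8% fell. With spike-in scaling 15 fell and the median was -1.11. With normexp correction of the mean signal 14 fell and the median was -1.12. Col3a1, type III collagen, read 5.82, 5.73 and 5.85 at 12 days and 3.28, 1.23 and 1.61 at 60 days (-3.76 ± 0.38, adjusted p = 0.000105). Fbn1, the microfibril protein fibrillin 1, read 6.82, 6.32 and 4.89 against 3.57, 1.81 and -0.20 (-4.28 ± 0.48, adjusted p = 0.000167). Fbln5, an organiser of elastic fibres, read 0.23, 1.09 and -0.03 against -4.39, -5.31 and -6.15 (-5.71 ± 0.42, adjusted p = 2.11e-05). None of these genes overlapped between ages. The exception was fibromodulin (Fmod), a collagen-binding proteoglycan, which rose by 1.62 ± 0.39 (adjusted p = 0.0118), and biglycan (Bgn), bright at both ages, was not called (-0.68 ± 0.32, adjusted p = 0.127).

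Markers of fibroblasts moved with the matrix, and several are matrix genes themselves. Of 14 tested 10 fell and 1 rose (median -2.32), and 9 fell without the 60-day array of replicate 1. With normexp correction of the mean signal 5 fell (median -1.14), and with probes above background on all 6 arrays 5 fell (median -2.83). Their summed level was 203 to 306 at 12 days and 24.0 to 126 at 60 days. Pdgfrb, a receptor for platelet-derived growth factor, read 2.83, 3.10 and 3.70 against -0.31, -2.01 and -1.57 (-4.51 ± 0.42, adjusted p = 6.97e-05), and the periostin gene Postn read 2.32, 3.03 and 0.49 against -0.01, -3.76 and -5.15 (-4.92 ± 0.72, adjusted p = 0.0008). The 60-day array of replicate 1 was the nearest to the 12-day arrays in both. The part of fibroblasts in the falls of the other lists was not tested. Basement membrane genes, which Sertoli and peritubular cells lay down together, changed both ways, and their median turned from -0.50 to 0.46 on the spike-in scale, where 4 fell: 9 of 32 fell, such as the laminin gene Lama2 (-2.99 ± 0.33, adjusted p = 0.000162) and nidogen 2 (Nid2, -3.20 ± 0.28, adjusted p = 4.91e-05), and 4 rose, such as Lama4, another laminin, by 2.08 ± 0.30 (adjusted p = 0.000724); 1 rose without replicate 2 or without replicate 3. The proteoglycan syndecan 1 (Sdc1) read 6.60, 7.40 and 6.66 against 4.31, 2.36 and 2.52 (-3.82 ± 0.46, adjusted p = 0.000266).

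Markers of peritubular myoid cells, the contractile cells around the tubule, fell in 6 of 14 tested, and none rose (median -1.01). The count was 3 without replicate 3, 3 without the 12-day array of replicate 3, 8 without the 60-day array of replicate 1, and 3 on the spike-in scale, where the median was -0.05. With normexp correction of the mean signal 1 fell (median -0.45). Actg2, smooth muscle gamma actin, read 5.86, 5.21 and 6.14 against 2.00, -0.40 and 1.58 (-4.67 ± 0.44, adjusted p = 7.21e-05). Cnn1, calponin, read 0.91, 0.38 and 0.23 against -0.75, -4.35 and -5.25 (-3.95 ± 0.86, adjusted p = 0.00686) and had an adjusted p of 0.0512 in the least favourable of the fits with arrays left out. In the wider list of muscle contractile genes 12 of 30 fell and 6 rose. Of these, 5 fell without replicate 3, 6 without the 12-day array of replicate 3, and 4 on the spike-in scale, where the median turned from -0.82 to 0.15. With normexp correction of the mean signal 3 fell (median -0.16).

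Growth factors and their receptors fell in 24 of 43 tested, and none rose (median -1.39, -1.08 with bounds), and 12 fell with spike-in scaling. With probes above background on all 6 arrays 15 fell, and with normexp correction of the mean signal 8 fell (median -0.34). Igf1, insulin-like growth factor 1, read 3.87, 4.07 and 3.99 at 12 days and 0.90, -0.10 and -0.69 at 60 days (-3.94 ± 0.36, adjusted p = 5.66e-05). Fgfr2, a fibroblast growth factor receptor, read 2.79, 3.24 and 2.67 against -0.33, -1.82 and -2.45 (-4.43 ± 0.41, adjusted p = 6.66e-05). The platelet-derived growth factor receptor gene Pdgfra read 2.61, 2.90 and 2.23 against 0.29, -1.99 and -2.99 (-4.14 ± 0.52, adjusted p = 0.000314). No 60-day array of these genes reached a 12-day level.

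The TGF-beta and bone morphogenetic protein (BMP) list fell in 19 of 42 and rose in 1 (median -0.96); on the spike-in scale 4 fell and the median was 0.01. The ligand gene Bmp4 read -0.20, -0.85 and 0.01 at 12 days and -5.24, -4.66 and -4.43 at 60 days (-4.43 ± 0.32, adjusted p = 1.93e-05). Chrd, the BMP antagonist chordin, read 2.40, 2.21 and 2.55 against -1.99, -2.28 and -1.48 (-4.31 ± 0.27, adjusted p = 1.09e-05), so a ligand and its antagonist fell by about as much. Outside the list the ligand genes Bmp3 and Gdf10 were at least 17.7-fold and at least 16.9-fold lower.

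Genes of the Notch and Hedgehog pathways fell in 12 of 24 and rose in 1 (median -0.94). The count was 6 without replicate 3, 7 without either array of replicate 3, and 3 on the spike-in scale, where the median was 0.03. With normexp correction of the mean signal it was 3 (median -0.22). Sertoli cells secrete desert hedgehog, whose targets lie in Leydig and peritubular cells. The ligand gene Dhh read 2.21, 3.42 and 2.15 at 12 days and 3.59, 3.62 and 2.95 at 60 days and was not called (0.80 ± 0.30, adjusted p = 0.0694). Gli1, a transcription factor induced by the pathway in receiving cells, read -1.04, -2.08 and -1.09 against -3.39, -4.78 and -4.43 (-2.79 ± 0.32, adjusted p = 0.000196), and Hhip, a decoy receptor that the pathway also induces, was at least 3.59-fold lower. Gas1, a Hedgehog coreceptor, read 1.98, 1.97 and 1.80 against -0.94, -2.62 and -3.24 (-4.18 ± 0.41, adjusted p = 8.78e-05). The Wnt list moved both ways, with 9 of 30 lower and 5 higher, and its median of -0.54 became 0.42 with spike-in scaling, where 1 fell. Without replicate 2 or without replicate 3 the rises numbered 3. Among the rises was the ligand gene Wnt5a, from -2.02, -1.74 and -2.29 to -0.32, 0.22 and 0.20 (2.05 ± 0.29, adjusted p = 0.000645).

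The FSH receptor acts through cyclic AMP. Of 28 tested genes of this pathway 5 fell and 3 rose, near the shares over all genes. With spike-in scaling 3 fell, and the rises numbered 0 without replicate 3 and 1 without replicate 2. The falls were adenylate cyclases and effectors. Adcy5 read 1.78, 1.59 and 0.36 at 12 days and -1.72, -4.18 and -4.76 at 60 days (-4.80 ± 0.42, adjusted p = 4.7e-05), and Adcy2, outside the list, read 2.02, 2.51 and 2.63 against -2.38, -3.35 and -1.26 (-4.72 ± 0.45, adjusted p = 7.49e-05). Rapgef3, the cyclic AMP sensor Epac1, was at least 9.16-fold lower. Creb1, the transcription factor that cyclic AMP activates, rose by 1.16 ± 0.30 (adjusted p = 0.016), with an adjusted p of up to 0.107 in the fits with arrays left out. Phosphodiesterases, which break cyclic nucleotides down, went both ways: Pde11a rose by 4.40 ± 0.46 (adjusted p = 0.000124) and Pde5a was at least 6.11-fold lower. Ppp1r1a, a phosphatase inhibitor that protein kinase A switches on, read 2.21, 2.47 and 2.75 against -1.86, -5.45 and -6.40 (-7.05 ± 0.81, adjusted p = 0.000197). Its 60-day levels in replicates 2 and 3 were not well above background, so the size of the fall is uncertain.

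Immediate early genes, which respond within an hour to hormones and to handling of cells, fell in 14 of 27, and none rose (median -1.07); on the spike-in scale 2 fell and 1 rose. Without replicate 2 the falls numbered 9, and without replicate 3 they numbered 8. Leaving out the 60-day array of replicate 1 gave 10, as did the fit without the replicate block. Nr4a3, a nuclear receptor, read 3.24, 3.33 and 3.95 at 12 days and -0.47, 0.57 and 0.13 at 60 days (-3.43 ± 0.32, adjusted p = 7.07e-05). Myc, a driver of cell growth, read 3.55, 3.70 and 4.41 against 1.55, 1.30 and 0.89 (-2.64 ± 0.36, adjusted p = 0.000499). Fos, a subunit of AP-1, read 1.17, 0.28 and 1.40 against -2.00, -0.80 and -0.93 (-2.19 ± 0.40, adjusted p = 0.00262). The ages did not overlap in these genes, and the call on Fos was lost on the spike-in scale. The full cAMP response element, TGACGTCA, stood in 26.32% of 19 promoters of this list and 3.14% of those of tested genes; 4 of the 5 members with it fell and 6 of the 14 without it.

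Cell cycle genes were lower relative to the rest of the array. Of 38 tested genes of G1 and S phase 21 fell and 1 rose (median -0.99), and of 36 of G2 and mitosis 12 fell and 3 rose (median -0.61). With spike-in scaling 2 and 0 fell, and the medians were -0.03 and 0.35. Without replicate 3 the falls of the first list numbered 8 (13 without its 60-day array alone), and without replicate 2 those of the second numbered 7. Cdk1, the kinase that starts mitosis, read 4.95, 4.75 and 4.87 at 12 days and 2.89, 1.74 and 2.70 at 60 days (-2.42 ± 0.30, adjusted p = 0.000322). The replication licensing gene Cdt1 read 0.31, -0.36 and 0.15 against -3.07, -2.28 and -2.75 (-2.73 ± 0.41, adjusted p = 0.000856). The polo kinase gene Plk1 fell by 2.25 ± 0.26 on the log2 scale (adjusted p = 0.000227). Rises in the mitosis list included Nek2 (3.24 ± 0.52, adjusted p = 0.00131) and Tpx2 (2.60 ± 0.39, adjusted p = 0.000947), a kinase and a spindle factor. The letters TTTGAA, the CHR element of mitosis genes, stood in 70.97% of 31 promoters of the G2 list and 12.04% of those of tested genes; 6 of the 22 members with the motif fell, and 2 of the 9 without it.

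The list of inhibitors of cyclin-dependent kinases and other growth arrest genes had 7 of 27 higher and 6 lower. These shares were 25.9% and 22.2%, against 15.5% and 18.8% over all genes. The number higher was 3 without replicate 3, and 4 without replicate 2, without either array of replicate 3, or without the replicate block. With spike-in scaling 1 was lower. Cdkn2a, which encodes p16 and p19Arf, read -2.57, -0.77 and -2.08 at 12 days and 2.49, 2.01 and 0.24 at 60 days (3.39 ± 0.50, adjusted p = 0.000838). Its neighbour Cdkn2b rose by 1.49 ± 0.32 (adjusted p = 0.00699) and was not called when replicate 3 was left out. The ages did not overlap for either gene.

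Lipid synthesis was lower relative to other genes. Of 27 tested genes of sterol synthesis 15 fell and 1 rose (median -1.09), and of 37 of fatty acid and lipid droplet metabolism 15 fell and 4 rose (median -0.69). With spike-in scaling 1 and 3 fell, and the medians were -0.13 and 0.27. Without replicate 3 the falls numbered 7 and 8, and without replicate 2 those of the fatty acid list numbered 9. Lpl, lipoprotein lipase, read -0.50, -0.67 and -0.99 against -2.85, -6.87 and -6.46 (-4.67 ± 0.70, adjusted p = 0.000935). The desaturase gene Scd read 0.37, 0.24 and -0.19 against -3.41, -5.07 and -3.79 (-4.23 ± 0.43, adjusted p = 9.58e-05), and Elovl6, an elongase, 2.37, 2.41 and 1.74 against -0.22, -1.98 and -2.10 (-3.61 ± 0.49, adjusted p = 0.000495). The ages did not overlap in these genes. Genes of the opposite course were Elovl2, the elongase of very long polyunsaturated fatty acids, which rose by 2.63 ± 0.41 (adjusted p = 0.0011), and the nuclear receptor gene Pparg, which rose by 2.95 ± 0.36 (adjusted p = 0.000287).

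**Figure D4:**
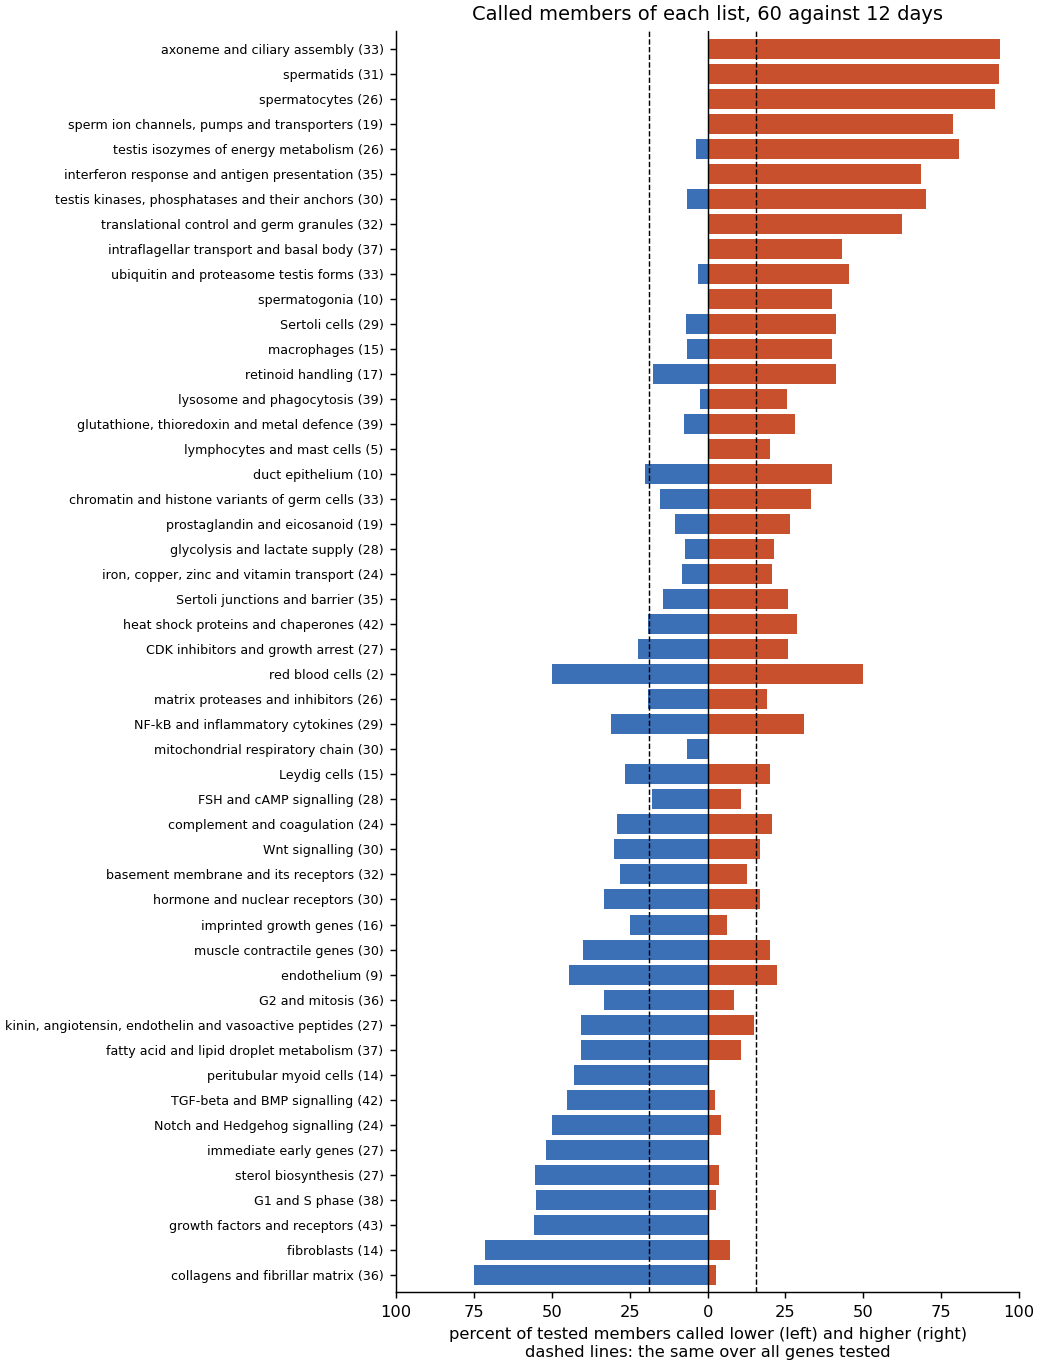
Percent of tested members called lower (left, blue) and called higher (right, red) at 60 days for each of the 50 gene lists, with the number tested in brackets; dashed lines mark the shares over all genes tested, 18.8% lower and 15.5% higher. The axoneme, spermatid and spermatocyte lists are at the top, and the fibroblast and fibrillar matrix lists at the bottom.

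Genes of the lysosome, which takes up the cytoplasm shed by spermatids in the adult tubule, rose in 10 of 39 and fell in 1 (median 0.34). Without replicate 3 the rises numbered 3 and without replicate 2 they numbered 5. Leaving out either 12-day array of these replicates gave 5, leaving out the 60-day array of replicate 2 gave 6, and the fit without the replicate block gave 6. Psap, the activator of sphingolipid hydrolases, read 4.72, 4.73 and 3.75 at 12 days and 6.14, 6.87 and 6.74 at 60 days (2.18 ± 0.35, adjusted p = 0.00125). Hexa, a hexosaminidase subunit, rose by 1.88 ± 0.28 (adjusted p = 0.000912), and Ctsh, a cathepsin, by 1.53 ± 0.27 (adjusted p = 0.00237).

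Genes of glutathione, thioredoxin and metal defence rose in 11 of 39 and fell in 3, and in 4 without replicate 2. The rises numbered 6 without replicate 3 or without any single array of replicates 2 and 3. Glutathione transferases, which conjugate foreign compounds, rose in 8 of 16 and none fell; 3 rose without replicate 2, and 5 without replicate 3 or any single array of both. Gsta2 read -5.24, -3.86 and -4.64 at 12 days and 2.09, 5.42 and 4.54 at 60 days (8.60 ± 0.62, adjusted p = 1.85e-05). Its 12-day levels in replicates 1 and 3 were not well above background, so the size of the rise is uncertain. Mt1, the metal-binding metallothionein 1, read 4.18, 3.93 and 4.48 against 5.99, 6.56 and 6.22 (2.06 ± 0.30, adjusted p = 0.000804). Txnrd3, the thioredoxin reductase of the testis, rose by 2.09 ± 0.32 (adjusted p = 0.0011). In each of these genes all 60-day arrays were above all 12-day arrays.

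Retinoic acid starts meiosis and is made and broken down in the tubule. Of 17 tested genes of retinoid handling 7 rose and 3 fell; no fall was called without the replicate block or with spike-in scaling, and 1 without replicate 2 or without replicate 3. Aldh1a1, an enzyme that makes retinoic acid, read 2.83, 2.76 and 3.03 at 12 days and 4.08, 4.85 and 5.02 at 60 days (1.78 ± 0.29, adjusted p = 0.00152). Dhrs3, a retinal reductase, rose by 2.69 ± 0.32 (adjusted p = 0.000255). The breakdown enzymes moved in opposite directions: Cyp26a1 was at least 3.00-fold higher, while Cyp26b1 read 2.24, 1.15 and 3.52 against -1.21, 0.05 and 1.75 (-2.10 ± 0.42, adjusted p = 0.00463), a call lost without the replicate block (adjusted p = 0.0991) and on the spike-in scale. Aldh1a2 was at least 4.09-fold higher, with 60-day levels of 0.43, -3.75 and -2.68, and also lost its call without the block (adjusted p = 0.0958). The ages overlapped in Cyp26b1 and in Aldh1a2.

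Carriers of metals and vitamins and genes of vasoactive peptides came last. Of 24 tested genes of metal and vitamin transport 5 rose and 2 fell (20.8% and 8.3%, against 15.5% and 18.8% over all genes). The rises numbered 2 without replicate 2, and 3 without its 12-day array or without replicate 3. Cubn, the receptor cubilin, was at least 10.2-fold higher, and Heph, a copper oxidase that exports iron, read 0.91, 0.83 and 1.10 against -2.87, -4.97 and -4.80 (-5.16 ± 0.42, adjusted p = 3.3e-05). Of 27 tested vasoactive peptide genes 11 fell and 4 rose; on the spike-in scale 6 fell and the median turned from -0.83 to 0.13. Both the ligand C-type natriuretic peptide (Nppc) and its receptor (Npr2) fell. Nppc read -0.11, 0.33 and -0.17 against -3.57, -4.29 and -5.08 (-4.33 ± 0.33, adjusted p = 2.68e-05), and Npr2 read 0.55, 0.13 and 0.71 against -2.34, -3.39 and -3.78 (-3.63 ± 0.37, adjusted p = 9.82e-05). The ages did not overlap in either. The gene of B-type natriuretic peptide, Nppb, rose by 2.23 ± 0.40 (adjusted p = 0.00253).

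Among 15 tested markers of Leydig cells, which make testosterone, 3 rose and 4 fell (20.0% and 26.7%, against 15.5% and 18.8% over all genes). The rises numbered 1 without replicate 2 or without replicate 3, and the falls 2 with spike-in scaling and 0 with normexp correction of the mean signal. Hsd17b3, the last enzyme of testosterone synthesis, read -2.76, -0.64 and -2.33 against -5.99, -4.43 and -6.01 (-3.57 ± 0.44, adjusted p = 0.000305). Star, which brings cholesterol into mitochondria, rose by 0.98 ± 0.27 (adjusted p = 0.0203), with an adjusted p of up to 0.166 in the fits with arrays left out. Of 10 tested markers of duct epithelium 4 rose, led by the keratin gene Krt19 (at least 18.8-fold), and 2 fell, among them Krt7, another keratin (-3.71 ± 0.63, adjusted p = 0.00186). Of 9 endothelial markers tested 4 fell and 2 rose, 1 rose without the 60-day array of replicate 1, 2 fell without replicate 3 and 1 with spike-in scaling, and the vascular endothelial growth factor receptor Kdr read 2.97, 3.45 and 3.82 against 1.14, -0.75 and -0.20 (-3.35 ± 0.49, adjusted p = 0.000748).

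**Figure D5:**
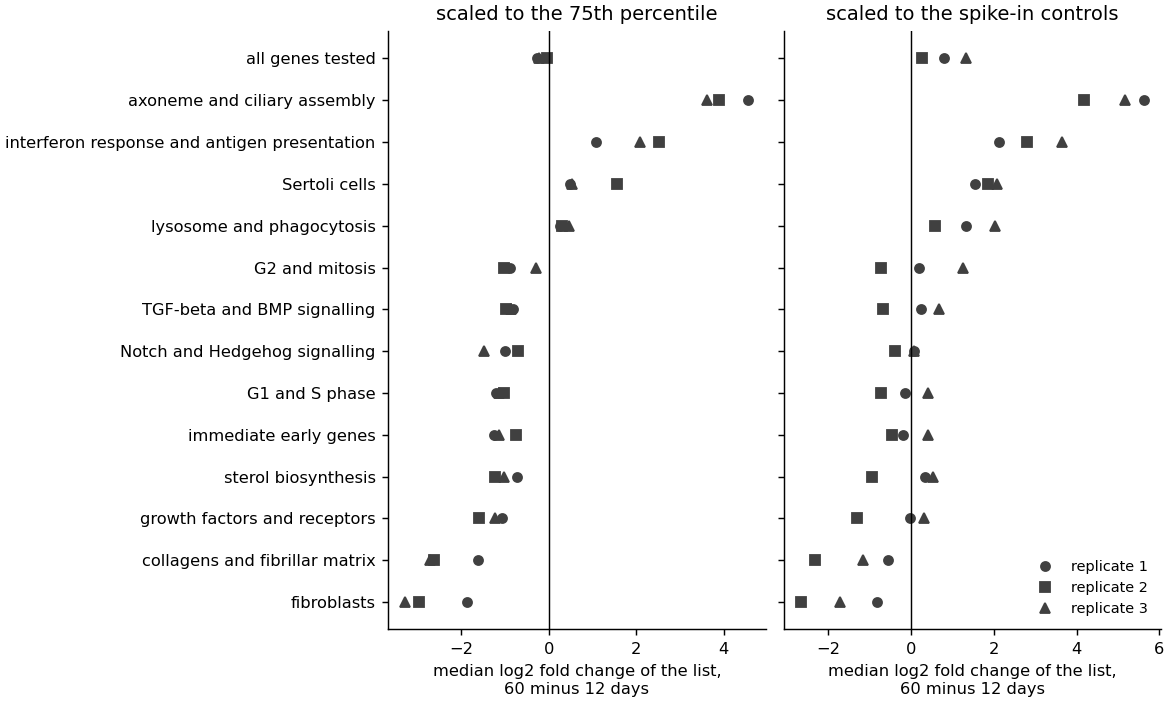
Median log2 fold change (60 minus 12 days) of 13 gene lists and of all genes tested, on each slide (replicate), with arrays scaled to the 75th percentile (left) or to the spike-in controls (right). On the left the slides give all genes medians of -0.26, -0.03 and -0.23. On the right the slides lie further apart for most lists, but closer for the Sertoli cell list and the Notch and Hedgehog list. There the signalling, cell cycle and sterol lists lie on both sides of 0.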

How the data were processed

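Cy3-labelled RNA was read on 1-colour Agilent 4x44k arrays. The deposited scans hold the processed signal, an intensity after background subtraction by Feature Extraction (versions 9.5.3.1 and 10.5.1.1, per the file headers); the deposited value table holds log2 values and served as an alternative. Of 41012 probes, 271 with a quality failure were left out. The log2 signal was scaled to each array's 75th percentile. A probe was kept if at least 2 arrays of any 1 age, the 5-day age included, measured it well above background. The probe that was brightest over all 9 arrays stood for a gene. Names were updated through RefSeq; positions are rn4 probe positions, and exons and UTRs are not stated because no rn4 annotation was used. A model of age with the replicate number as a block used all 9 arrays (limma 3.58.1, R 4.3.3) and tested on simulated data; p values are 2-sided and Benjamini-Hochberg adjusted. Same-numbered arrays share a slide, and after removal of the age means they correlated at 0.18 to 0.60, other pairs at 0.094 or less, so the numbers pair the arrays. Named genes were the largest changes and bounds, the leading members of each list and family, genes fixed whatever their change, and those with a printed promoter. Members and lists were chosen with earlier results of these data known. Tables and plots used Python 3.11.15, pandas 2.3.3, numpy 2.4.6 and matplotlib 3.10.9. Alternatives were other scales, backgrounds, filters, probe rules, fits and left-out arrays.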

Additional observations from a re-analysis of the deposited data

How the results depend on the processing

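The main counts were 7753 genes called, 3497 higher and 4256 lower. Without the replicate block, 2761 rose and 2960 fell. With the block but only the 6 arrays of 12 and 60 days in the fit, 3130 rose and 3695 fell. With normexp background correction of the mean signal, which only replicates 1 and 3 hold, 2791 genes were called, 1504 higher and 1287 lower. Fewer arrays entered that fit. In it the falls numbered 10 in the TGF-beta and BMP list, 10 in G1 and S phase, 7 in G2 and mitosis and 6 in sterol synthesis. With probes above background on all 6 arrays, 1923 rose; fewer genes were tested. On the spike-in scale 779 fell; that scale adds 0.96 on average to each fold change and brings in the spread of the controls. Leaving out replicates or arrays gave 4331 to 7512 calls, 2304 to 3512 higher and 2027 to 4000 lower, and the cause of the lowest was not tested. On the spike-in scale the sign turned for genes that were not called: Sox9 (0.64), Gata4 (0.81), Inha (0.48), Dmrt1 (0.18), Bgn (0.28) and Pcna (0.13). Sox9 also turned without replicate 1 and without its 12-day array alone (range with arrays left out -0.73 to 0.11), and Gata4 with quantile normalization (0.039), with normexp of the median signal (0.014, chosen after seeing the data), and when 1 array was left out at either age (range -0.30 to 0.023). Of 156 genes called and named or checked for the text, 47 lost their call under normexp of the mean signal, 15 on the spike-in scale and 6 without the replicate block.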

Other observations

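Families defined by gene symbol, a few of whose members are also in the lists, were tested as well. Of 82 cytosolic ribosomal protein genes tested, 27 fell and 1 rose, with a median of -0.77 that became 0.19 on the spike-in scale, where none fell; without replicate 3 the falls numbered 2, without replicate 2 they numbered 8, and without the replicate block 14. Single arrays moved the count too: it was 12 and 6 without the 12-day arrays of replicates 2 and 3, and 16 and 6 without the 60-day arrays of replicates 1 and 3. The rise was that of Rpl39l1, which read 1.33, 2.27 and 2.80 at 12 days and 5.71, 4.70 and 5.47 at 60 days. Annexins, calcium-dependent membrane binding proteins, rose in 6 of 9 and none fell, and in 3 without replicate 2. Anxa10 read -3.22, -4.11 and -3.63 against 1.30, 1.37 and 1.29. Cadherins and protocadherins, which join cells, fell in 18 of 36 and rose in 3, and 10 fell on the spike-in scale. Pcdh18 was at least 27.9-fold lower.

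S100 calcium-binding proteins fell in 7 of 10 and rose in 2; 2 fell on the spike-in scale and 4 without replicate 2 or without replicate 3. S100a16 read 2.13, 2.33 and 2.71 against 0.20, -0.87 and -1.27. Solute carriers rose in 66 of 233 and fell in 38, and 42 rose and 14 fell without replicate 3; 77 rose and 7 fell on the spike-in scale. Among 13 Hox genes 4 fell and 1 rose, Hoxa4, which read -4.00, -3.25 and -3.51 against 0.96, 0.12 and 0.49. Olfactory receptors stayed near 0, with 2 of 110 higher and 4 lower. Of 828 genes on the X chromosome 19.44% rose and 22.95% fell, against 15.12% and 18.75% of 20695 autosomal genes. Among genes with a current symbol 22.25% of 418 on the X rose and 19.38% fell. The shares of 11164 such autosomal genes were 18.43% and 16.11%.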
